A study of Mus musculus with 16 samples.

Results

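The FOXO transcription factors *Foxo1*, *Foxo3* and *Foxo4*, with 6 genes that FOXO proteins are known to act on in lymphocytes and other cells, *Klf2*, *S1pr1*, *Cdkn1b*, *Ccng2*, *Sesn1* and *Txnip*, were examined in sorted thymocytes of mice with and without PKBα. Members were taken by gene symbol, and 21 of the 45101 probe sets of the array carried the symbol of 1 of these 9 genes alone, among 18194 genes named in this way. A further probe set that carries the symbols of *Foxo3* and a second gene was left out of the comparisons. Where a gene has several probe sets, the one with the highest mean log2 value over all arrays is called its lead probe set.

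DN3 thymocytes, which assemble the pre-TCR and carry neither CD4 nor CD8, and ISP8 thymocytes, the immature CD8 single positive cells that come after them, were sorted from 4 *PKBα*-/- mice and 4 *PKBα*+/+ littermates on a C57Bl/6 backcross background. Both subsets of all 8 mice were hybridised, 1 array each, so that *PKBα*-/- ISP8, *PKBα*+/+ ISP8, *PKBα*-/- DN3 and *PKBα*+/+ DN3 cells had 4 arrays each. Pair 1 was female and 3 weeks old, pair 2 male and 3 weeks old, pair 3 male and 2 weeks old and pair 4 female and 5 weeks old. The gene is missing from the whole animal in the *PKBα*-/- mice, so that the thymic stroma around the thymocytes lacked it as well. The array numbers in the sample titles run from 1 to 8 for ISP8 and from 9 to 16 for DN3 cells, and array order and subset cannot be told apart.

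FOXO proteins hold cells in quiescence while growth signals are absent. When PI3K is active, PKB phosphorylates them, 14-3-3 proteins bind the phosphorylated forms, and they are held outside the nucleus, where they cannot act on their targets. Among these targets in lymphocytes are the factor KLF2, which turns on the egress receptor gene *S1pr1*, the cell cycle brakes p27 and cyclin G2, and the metabolic regulators sestrin 1 and TXNIP. Phosphorylation and localisation of the FOXO proteins are not seen on an expression array, which measures transcripts only.

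The labels were checked first. *Akt1*, which encodes PKBα, averaged 5.78 in *PKBα*-/- and 1969 in *PKBα*+/+ ISP8 cells and 9.45 in *PKBα*-/- and 1541 in *PKBα*+/+ DN3 cells, lower in 4 of 4 pairs of each (adjusted p = 4.6e-09 and 6.2e-08). The *PKBα*-/- averages lie below 20, where a fold change is not measured exactly. *Il2ra* (CD25), on which DN3 cells were sorted, averaged 258 and 185 in *PKBα*-/- and *PKBα*+/+ ISP8 cells and 8905 and 8133 in *PKBα*-/- and *PKBα*+/+ DN3 cells. *Cd8a* averaged 5211 and 5152 in the ISP8 groups against 170.0 and 208 in the DN3 groups, in the same order of genotypes. These values, as all levels here, are GC-RMA intensities on a linear scale. A value of 20 served as the floor for testing. Among markers of other cells, the B cell gene *Cd79a* averaged 7.23 to 28.3 and the mature T cell gene *Ccr7* 23.4 to 51.3 over the 4 groups. The γδ T cell gene *Cd163l1* averaged 332 to 2439, the myeloid gene *Lyz2* 72.0 to 584 and the NK cell gene *Gzma* 12304 to 18440. Other genes of the same lists differed from these. *Cd79b* (B cell) averaged 257 to 1177 and *Cd28* (mature T cell) 1429 to 4308. *Zbtb16* (γδ T cell) averaged 15.1 to 19.2, *Itgam* (myeloid) 15.2 to 21.4 and *Ncr1* (NK cell) 14.3 to 34.7.

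Promoter windows were printed for *Txnip*, *Ccng2* and *Sesn1*, the members in which a FOXO-type motif was found. The part of these motifs in the differences between subsets was not tested. In the RefSeq windows of 250 bases before and 50 bases after a gene's start (GRCm38.p6), 7 of the 9 members were matched, with 8 windows in all. *Foxo4* and *S1pr1* were not matched. The letters TGTTTAC and their longer form TTGTTTAC, which contains them, and the insulin response element core CAAAACAA were searched on both strands. Of 32851 windows, 3.65%, 1.23% and 2.51% held these motifs.

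The 250 bases before the start of *Txnip* (chr3:96557707-96557956, + strand), with the motif GTAAACAA, the opposite-strand form of TTGTTTAC, in capitals at bases -121 to -114 from the start:
Txnip: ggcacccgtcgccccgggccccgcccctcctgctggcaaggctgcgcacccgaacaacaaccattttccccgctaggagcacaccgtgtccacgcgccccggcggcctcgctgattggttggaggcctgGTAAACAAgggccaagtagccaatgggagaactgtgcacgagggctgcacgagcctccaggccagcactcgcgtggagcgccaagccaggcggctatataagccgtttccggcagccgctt
The last 62 bases before the start of *Ccng2* (chr5:93267511-93267572, + strand), with CAAAACAA in capitals at bases -16 to -9:
Ccng2: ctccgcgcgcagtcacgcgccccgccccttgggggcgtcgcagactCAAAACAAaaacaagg
A stretch of 29 bases after 1 of the 2 starts of *Sesn1* (chr10:41810585-41810613, + strand), with TGTTTAC in capitals at bases 23 to 29:
Sesn1: gaaccttctacTGTTTACcagccttttgg

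The windows of *Foxo1*, *Foxo3*, *Klf2* and *Cdkn1b* and the second *Sesn1* window held none of these letters. A match is a string of letters and not a measured binding site.

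Between the subsets, *Foxo3*, *Txnip* and *Sesn1* were lower in ISP8 than in DN3 cells in both genotypes, by 2.11-fold, 2.36-fold and 1.34-fold in *PKBα*-/- and by 2.02-fold, 2.53-fold and 1.41-fold in *PKBα*+/+ mice. *Ccng2* was higher in ISP8 cells of *PKBα*-/- mice and *Foxo1* in those of *PKBα*+/+ mice. Between the genotypes, none of the members passed the test in either subset. Genotypes were compared within pairs and subsets within mice with limma. A difference passed at an adjusted p (Benjamini-Hochberg, all tested probe sets) under 0.05. Errors of log2 differences are moderated SE of the fits over 4 pairs or mice. In these, the spread of a probe set is drawn toward that of probe sets of like intensity. They are thus not the SE of the 4 values alone.

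In the comparison of ISP8 with DN3 cells in *PKBα*-/- mice, 19 of the 21 member probe sets reached the floor and were tested, and 1 was higher and 7 were lower. Of all 34038 probe sets tested there, 28.1% passed, 11.9% higher and 16.2% lower. In *PKBα*+/+ mice 20 were tested, and 2 were higher and 6 lower, where 28.9% of 34506 passed, 11.6% higher and 17.3% lower. By lead probe sets, 1 gene was higher and 3 were lower of 9 in each genotype. The median over the 9 lead probe sets was -0.18 in *PKBα*-/- and 0.10 in *PKBα*+/+ mice on the log2 scale, against -0.05 and -0.09 over all probe sets tested. Quantile normalization moved this last median to 0.03 in both genotypes and left the calls of the lead probe sets as they were. Over all member probe sets it gave 3 higher and 5 lower in *PKBα*-/- and 4 higher and 5 lower in *PKBα*+/+ mice, and over all probe sets 4633 higher and 4578 lower in *PKBα*-/- and 4656 higher and 4652 lower in *PKBα*+/+ mice, so that the excess of lower calls depended on the scaling. The methods' paired test, after adjustment, kept *Foxo3* in both genotypes and *Sesn1* in *PKBα*-/- mice, and lost the calls of *Txnip* (adjusted p = 0.065 in *PKBα*-/- and 0.074 in *PKBα*+/+ mice), *Ccng2* (0.096 in *PKBα*-/- mice), *Sesn1* (0.074 in *PKBα*+/+ mice) and *Foxo1* (0.071 in *PKBα*+/+ mice).

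Of the genotype comparisons, that in ISP8 cells tested 20 member probe sets, that in DN3 cells 19 and that of the average of both subsets 20, and 0 passed in each. Of all probe sets tested, 0.0147%, 0.0383% and 0.0353% passed, in the same order. At an unadjusted p under 0.05 the counts were 2, 2 and 2 member probe sets, and 2067, 1642 and 1789 of all probe sets (6.08%, 4.83% and 4.86%). The methods' paired test, after adjustment, called 0 probe sets in any of the 3 comparisons. The difference of the genotype effect between the subsets was also tested directly, and 0% of 36835 probe sets passed, with 1750 at an unadjusted p under 0.05. The 95% intervals of 7 of 9 lead probe sets in ISP8 and of 5 of 9 in DN3 cells lay within 1.5-fold in either direction. The lead probe sets of *Foxo3*, *Cdkn1b*, *Ccng2*, *Sesn1* and *Txnip* were among them in both subsets. This did not hold for every probe set of these genes. Each gene had another probe set with an interval that reached beyond 1.5-fold in ISP8 or DN3 cells. In ISP8 cells the interval of *Sesn1* 1454699_at ran from 0.30 to 1.02 on the log2 scale. That of *Sesn1* 1438931_s_at stayed within the bound there, from -0.23 to 0.39.

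**Figure D1:**
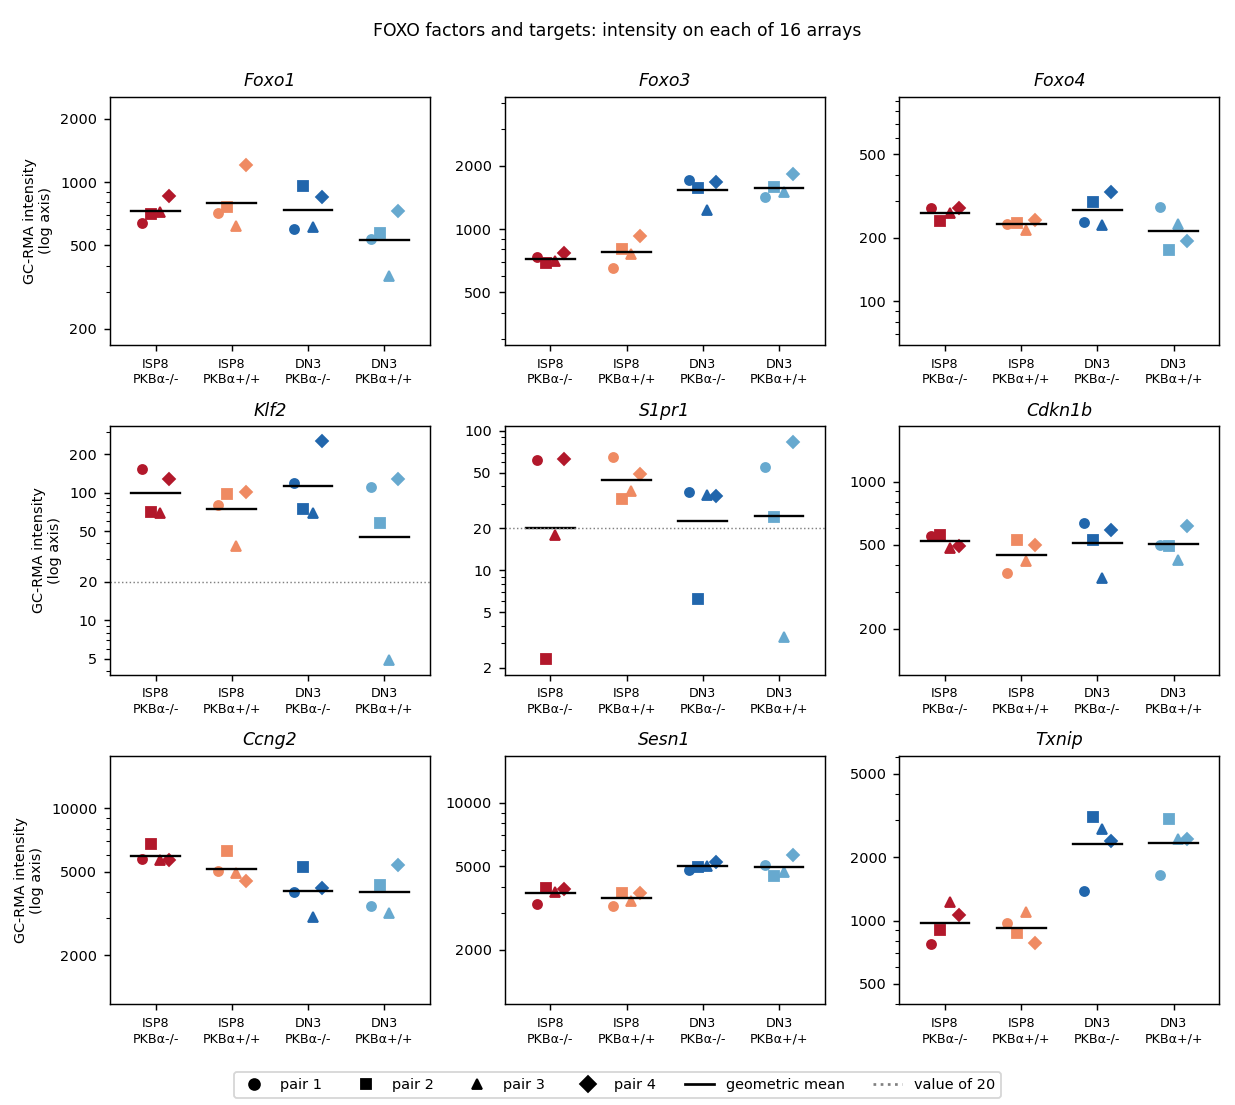
GC-RMA intensity (log axis, scaled for each gene) of the lead probe set of the 9 genes on each of 16 arrays. Symbols mark the littermate pairs, bars are geometric means of 4 arrays, and the dotted line is the value of 20. *Foxo3*, *Sesn1* and *Txnip* of ISP8 cells lie below those of DN3 cells with no overlap, whereas *Klf2* and *S1pr1* spread widely within each group.

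*Foxo3* encodes the FOXO factor best known for cell cycle arrest and death of resting lymphocytes. Its lead probe set (1434831_a_at) had 735, 691, 702 and 768 in *PKBα*-/- ISP8 cells (pairs 1 to 4 here and below) and 653, 799, 762 and 923 in *PKBα*+/+ ISP8 cells. DN3 cells had 1702, 1562, 1226 and 1674 in *PKBα*-/- and 1414, 1582, 1494 and 1834 in *PKBα*+/+ mice. Every ISP8 array was below every DN3 array, and the genotypes overlapped within each subset. The log2 difference between ISP8 and DN3 cells was -1.08 ± 0.12 in *PKBα*-/- (moderated SE, n = 4 mice, adjusted p = 1.1e-05) and -1.02 ± 0.12 in *PKBα*+/+ mice (adjusted p = 3.3e-05). In single *PKBα*+/+ mice it ran from -1.11 to -0.97, the narrowest range of any member that passed in that genotype.

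A second *Foxo3* probe set (1434832_at) was also lower in ISP8 cells, by 0.59 ± 0.19 in *PKBα*-/- (adjusted p = 0.028) and by 0.55 ± 0.17 in *PKBα*+/+ mice (adjusted p = 0.025). It had 269 to 363 in *PKBα*-/- and 305 to 403 in *PKBα*+/+ ISP8 cells, against 383 to 559 in *PKBα*-/- and 481 to 605 in *PKBα*+/+ DN3 cells. Both of its calls were lost under quantile normalization (adjusted p = 0.15 and 0.21), that in *PKBα*-/- mice also without pair 2 (adjusted p = 0.099) or 4 (0.14), and that in *PKBα*+/+ mice without pair 1 (0.062), 3 (0.097) or 4 (0.095). The third (1450236_at) was near the floor, with 2.78 to 61.2 on the 16 arrays. When all 3 were averaged, the difference was -0.33 in *PKBα*-/- and -0.28 in *PKBα*+/+ mice and no longer passed (adjusted p = 0.36 and 0.58), so that the call rests on the lead and the second probe set.

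The genotype difference of the *Foxo3* lead probe set was -0.11 (95% interval -0.38 to 0.17) in ISP8 and -0.04 (-0.27 to 0.19) in DN3 cells, with adjusted p = 0.905 and 0.989. The change from DN3 to ISP8 cells differed between the genotypes by -0.06 ± 0.15 (adjusted p = 0.985).

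*Foxo1* encodes the FOXO factor that drives *Il7r* and *Klf2* in naive T cells. Its lead probe set (1416983_s_at) had 641, 707, 724 and 860.4 in *PKBα*-/- and 709, 763, 616 and 1201 in *PKBα*+/+ ISP8 cells. In DN3 cells it had 597, 961, 609.6 and 853 in *PKBα*-/- and 535, 572, 356 and 727 in *PKBα*+/+ mice. The *PKBα*+/+ DN3 group averaged lowest, with 548 ± 152, against 755 ± 181, 733 ± 92.1 and 822 ± 259.9 in *PKBα*-/- DN3, *PKBα*-/- ISP8 and *PKBα*+/+ ISP8 cells (SD, n = 4 each), and all groups overlapped.

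ISP8 cells differed from DN3 cells by -0.02 ± 0.14 in *PKBα*-/- mice (adjusted p = 0.94) and by 0.58 ± 0.15 in *PKBα*+/+ mice, where they were higher in 4 of 4 (adjusted p = 0.0094). The call in *PKBα*+/+ mice was lost without pair 3 (0.52, adjusted p = 0.055), without the mouse as a block (adjusted p = 0.097) and with the mean of all *Foxo1* probe sets (0.14, adjusted p = 0.73). That mean takes in 1456529_at, below the floor on every array, which was at -0.55 in *PKBα*+/+ mice. The lead probe set, 1416982_at and 1416981_at were at 0.58, 0.38 and 0.16 there. In DN3 cells *Foxo1* was 0.48 ± 0.15 above in *PKBα*-/- mice, in 4 of 4 pairs (0.16, 0.75, 0.78 and 0.23), and in ISP8 cells the difference was -0.13 ± 0.14, with adjusted p = 0.84 and 0.89. The difference of these genotype effects, -0.60 ± 0.20, had the same sign in 4 of 4 pairs but did not pass (adjusted p = 0.96).

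The other *Foxo1* probe sets did not share this pattern. For 1416982_at the genotype difference was 0.10 in ISP8 and 0.06 in DN3 cells, and the subset difference was 0.42 in *PKBα*-/- (adjusted p = 0.091) and 0.38 in *PKBα*+/+ mice (adjusted p = 0.13), passing in both genotypes only under quantile normalization (adjusted p = 0.020 and 0.017). For 1416981_at the subset difference was 0.27 and 0.16 in the same order (adjusted p = 0.29 and 0.59). The remaining one (1456529_at) stayed at or below 12.6 on all 16 arrays and was not tested.

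*Foxo4* encodes the third FOXO factor of lymphocytes. Its lead probe set (1456753_at) ranged from 241 to 279 in *PKBα*-/- and from 219 to 243 in *PKBα*+/+ ISP8 cells, and from 231 to 333 in *PKBα*-/- and from 175 to 281 in *PKBα*+/+ DN3 cells. In ISP8 cells the *PKBα*-/- mouse was above its littermate in 4 of 4 pairs (0.25, 0.04, 0.26 and 0.20), by 0.19 ± 0.18 on average (adjusted p = 0.88), with groups that overlapped. In DN3 cells it was above in 2 of 4, with a difference of 0.32 ± 0.21 (adjusted p = 0.97). The subset difference was -0.04 ± 0.19 in *PKBα*-/- and 0.10 ± 0.22 in *PKBα*+/+ mice (adjusted p = 0.91 and 0.79). The second probe set (1422149_at) had 3.79 to 55.5 on the 16 arrays.

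*Klf2*, a zinc finger factor of quiescent and migrating T cells, was low and variable. It had 153, 70.4, 69.4 and 127 in *PKBα*-/- and 79.9, 97.0, 38.3 and 100.4 in *PKBα*+/+ ISP8 cells. In DN3 cells it had 119, 74.8, 68.8 and 254 in *PKBα*-/- and 109.7, 57.9, 4.87 and 129 in *PKBα*+/+ mice. The DN3 cells of the *PKBα*-/- mouse were above those of the littermate in 4 of 4 pairs, by 1.32 ± 0.48 on average (adjusted p = 0.97), although the groups overlapped.

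Pair 3, in which the *PKBα*+/+ DN3 array fell below the floor, contributed a difference of 3.82, and the average without it was 0.49. With 20 added to every value before the log it was 0.78. In ISP8 cells the genotype difference of *Klf2* was 0.42 ± 0.33 (adjusted p = 0.85), and the subset difference was -0.18 ± 0.30 in *PKBα*-/- and 0.73 ± 0.54 in *PKBα*+/+ mice (adjusted p = 0.72 and 0.36). The value in *PKBα*+/+ mice was -0.02 without pair 3.

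*S1pr1* encodes the sphingosine 1-phosphate receptor through which mature thymocytes leave the organ. It had 61.9, 2.32, 17.9 and 62.4 in *PKBα*-/- and 64.6, 32.3, 37.3 and 48.9 in *PKBα*+/+ ISP8 cells. DN3 cells had 36.5, 6.24, 34.5 and 34.4 in *PKBα*-/- and 54.9, 24.0, 3.32 and 82.9 in *PKBα*+/+ mice. Values on 4 of the 16 arrays were below 20, and the 95% half-width of its genotype difference was 1.54 in ISP8 and 1.77 in DN3 cells on the log2 scale. The genotype difference was -1.14 ± 0.71 in ISP8 and -0.11 ± 0.84 in DN3 cells (adjusted p = 0.85 and 0.999), and -0.26 in ISP8 cells without pair 2. The subset difference was -0.19 ± 0.75 in *PKBα*-/- and 0.85 ± 0.69 in *PKBα*+/+ mice (adjusted p = 0.89 and 0.41), and -0.03 in *PKBα*+/+ mice without pair 3. None of these passed, and a change of several fold would not have been detectable with this spread.

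**Figure D2:**
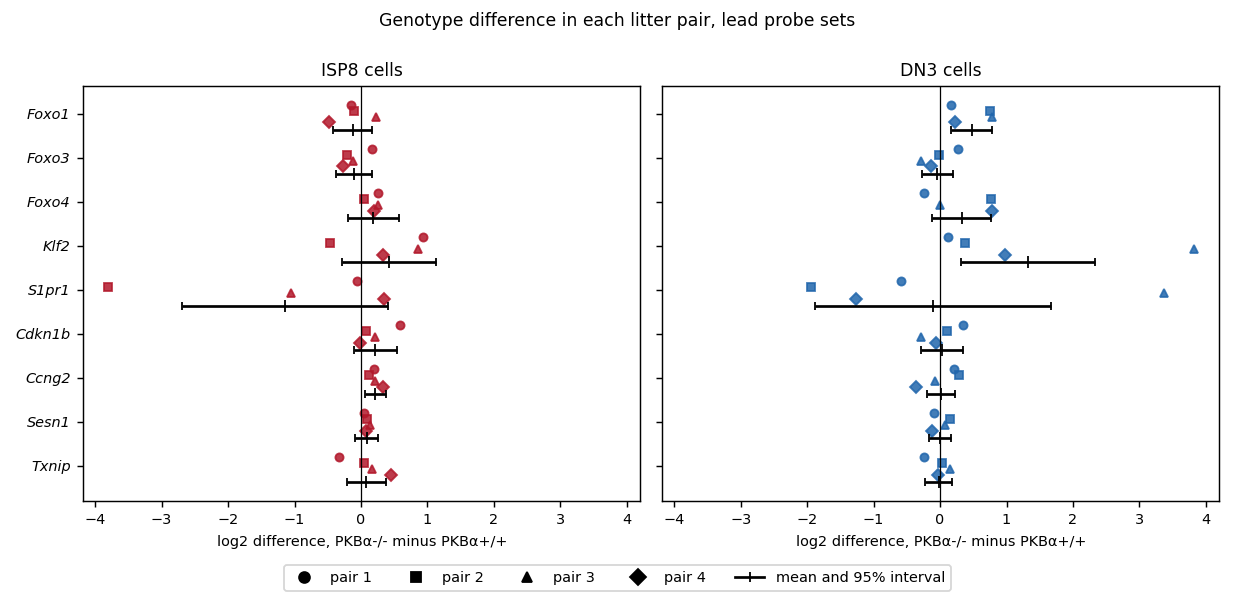
Log2 difference, *PKBα*-/- minus *PKBα*+/+, of each lead probe set in ISP8 (left) and DN3 cells (right). Colored symbols are the 4 littermate pairs, and the black bar below them is the mean with its 95% interval. *Sesn1*, *Txnip*, *Ccng2* and *Foxo3* stay close to 0, while pair 3 lies far from the rest for *Klf2* and *S1pr1* in DN3 cells and pair 2 for *S1pr1* in ISP8 cells.

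*Cdkn1b* encodes p27, an inhibitor of cyclin-dependent kinases. Its lead probe set (1434045_at) ranged from 484 to 556 in *PKBα*-/- and from 367 to 527 in *PKBα*+/+ ISP8 cells, against 346 to 638 in *PKBα*-/- and 422 to 613 in *PKBα*+/+ DN3 cells. The subset difference was 0.03 ± 0.16 in *PKBα*-/- and -0.16 ± 0.17 in *PKBα*+/+ mice (adjusted p = 0.93 and 0.53), and the genotype difference was 0.22 ± 0.15 in ISP8 and 0.03 ± 0.15 in DN3 cells (adjusted p = 0.85 and 0.997).

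Its other probe set (1419497_at) had 373 to 605 in *PKBα*-/- and 289 to 838 in *PKBα*+/+ ISP8 cells, against 254 to 484 in *PKBα*-/- and 164 to 467 in *PKBα*+/+ DN3 cells. It was 0.44 ± 0.16 above DN3 in ISP8 cells of *PKBα*-/- mice (adjusted p = 0.058, passing with a floor of 100, adjusted p = 0.033, and under quantile normalization, 0.62, adjusted p = 0.012) and higher by 0.71 ± 0.24 in those of *PKBα*+/+ mice (adjusted p = 0.041). This call in *PKBα*+/+ mice was lost without pair 1 (0.41, adjusted p = 0.23), 2 (0.67, 0.089) or 4 (0.76, 0.071), without a filter (adjusted p = 0.052) and without the mouse as a block (adjusted p = 0.15). The 2 probe sets of *Cdkn1b* thus gave no common direction in *PKBα*+/+ mice, with values of -0.16 and 0.71.

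*Ccng2* encodes cyclin G2, a cyclin of arrested cells. By lead probe sets it alone passed as higher in ISP8 cells of *PKBα*-/- mice, opposite to *Foxo3*. In *PKBα*+/+ mice *Foxo1* passed as higher and *Ccng2* did not. The lead probe set of *Ccng2* (1416488_at) had 5742, 6807, 5677 and 5668 in *PKBα*-/- and 5014, 6256, 4928 and 4508 in *PKBα*+/+ ISP8 cells. DN3 cells had 3982, 5271, 3039.9 and 4190.4 in *PKBα*-/- and 3450.0, 4342, 3196 and 5380.2 in *PKBα*+/+ mice. All *PKBα*-/- ISP8 arrays were above all *PKBα*-/- DN3 arrays, whereas the subsets overlapped in *PKBα*+/+ mice because of the DN3 array of pair 4.

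ISP8 cells were higher by 0.56 ± 0.09 in *PKBα*-/- mice (4 of 4, adjusted p = 3.6e-04), and the difference was 0.36 ± 0.13 in *PKBα*+/+ mice (3 of 4, adjusted p = 0.055). Without pair 4 the difference in *PKBα*+/+ mice was 0.56 and passed (adjusted p = 0.0017), as it did with 20 added to every value (adjusted p = 0.043). The difference between the genotypes, 0.20 ± 0.18, did not pass (adjusted p = 0.97). Within ISP8 cells *Ccng2* was 0.21 ± 0.07 above in *PKBα*-/- mice in 4 of 4 pairs (adjusted p = 0.78), with groups that overlapped, and within DN3 cells the difference was 0.01 ± 0.10 (adjusted p = 0.999). The second probe set (1448364_at) had a subset difference of 0.35 and 0.33 in *PKBα*-/- and *PKBα*+/+ mice (adjusted p = 0.26 and 0.28).

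*Sesn1* encodes sestrin 1, a stress-induced protein that restrains mTORC1. Its lead probe set (1433711_s_at) had 3319.7, 3941, 3775 and 3902 in *PKBα*-/- and 3228, 3719.7, 3422 and 3712 in *PKBα*+/+ ISP8 cells, against 4786, 4956, 4985 and 5212 in *PKBα*-/- and 5090.3, 4465, 4710.4 and 5678 in *PKBα*+/+ DN3 cells. The subsets did not overlap. The difference was -0.42 ± 0.08 in *PKBα*-/- (adjusted p = 0.0010) and -0.50 ± 0.10 in *PKBα*+/+ mice (adjusted p = 0.0015), lower in 4 of 4 mice of each genotype.

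A further *Sesn1* probe set (1454699_at) showed the largest genotype difference of the gene. It had 416, 377, 538 and 429 in *PKBα*-/- ISP8 cells, against 239.5, 264, 409 and 226 in *PKBα*+/+ ISP8 cells. The *PKBα*-/- mouse was above its littermate in 4 of 4 pairs, by 0.66 ± 0.17 (95% interval 0.30 to 1.02), but the groups overlapped and the difference did not pass (adjusted p = 0.54). In DN3 cells, which had 894, 489, 553 and 869.6 in *PKBα*-/- and 639, 569, 612 and 667 in *PKBα*+/+ mice, it was 0.13 ± 0.15 (adjusted p = 0.985).

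This probe set was lower in ISP8 than in DN3 cells, with a difference of -0.63 ± 0.18 in *PKBα*-/- (adjusted p = 0.018) and -1.17 ± 0.19 in *PKBα*+/+ mice (adjusted p = 4.5e-04). The call in *PKBα*-/- mice was lost without pair 1 (-0.48, adjusted p = 0.102) or pair 4 (-0.51, 0.103) and under quantile normalization (adjusted p = 0.067). The direct test of the difference between these changes did not pass (0.53 ± 0.28, adjusted p = 0.96). Another probe set (1438931_s_at) was lower in ISP8 cells of *PKBα*-/- mice by 0.57 ± 0.13 (adjusted p = 0.0050) and was at -0.36 ± 0.14 in *PKBα*+/+ mice (adjusted p = 0.066), where it passed without pair 2 (-0.48, adjusted p = 0.021). The last (1444376_at), at -0.49 and -0.37 in the same order, did not pass (adjusted p = 0.28 and 0.43). In ISP8 cells the genotype differences of the lead probe set, 1438931_s_at and 1444376_at were 0.08, 0.08 and -0.27, so that the difference of 1454699_at was not shared by them.

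*Txnip* encodes the thioredoxin-interacting protein, which binds thioredoxin and limits glucose uptake. The lead probe set (1415996_at) had 776, 904, 1224 and 1062 in *PKBα*-/- and 973, 876, 1096 and 779.8 in *PKBα*+/+ ISP8 cells, against 1387, 3116, 2729 and 2391 in *PKBα*-/- and 1643, 3047, 2450.2 and 2443 in *PKBα*+/+ DN3 cells. Every ISP8 array was below every DN3 array. The lowest DN3 values in both genotypes were those of pair 1.

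The difference was -1.24 ± 0.14 in *PKBα*-/- (adjusted p = 1.0e-05) and -1.34 ± 0.16 in *PKBα*+/+ mice (adjusted p = 2.9e-05). In single *PKBα*+/+ mice it ran from -1.80 in pair 2 to -0.76 in pair 1. The second probe set (1415997_at), of low intensity, was lower in ISP8 cells by 1.48 ± 0.36 in *PKBα*-/- (adjusted p = 0.0069) and by 1.72 ± 0.40 in *PKBα*+/+ mice (adjusted p = 0.0050). It had 20 to 67 and 19.8 to 46.3 in *PKBα*-/- and *PKBα*+/+ ISP8 cells, and 99.1 to 162 and 83.9 to 120.3 in *PKBα*-/- and *PKBα*+/+ DN3 cells. The genotype difference of the lead probe set was 0.08 (95% interval -0.21 to 0.37) in ISP8 and -0.02 (-0.22 to 0.18) in DN3 cells, with adjusted p = 0.93 and 0.995.

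**Figure D3:**
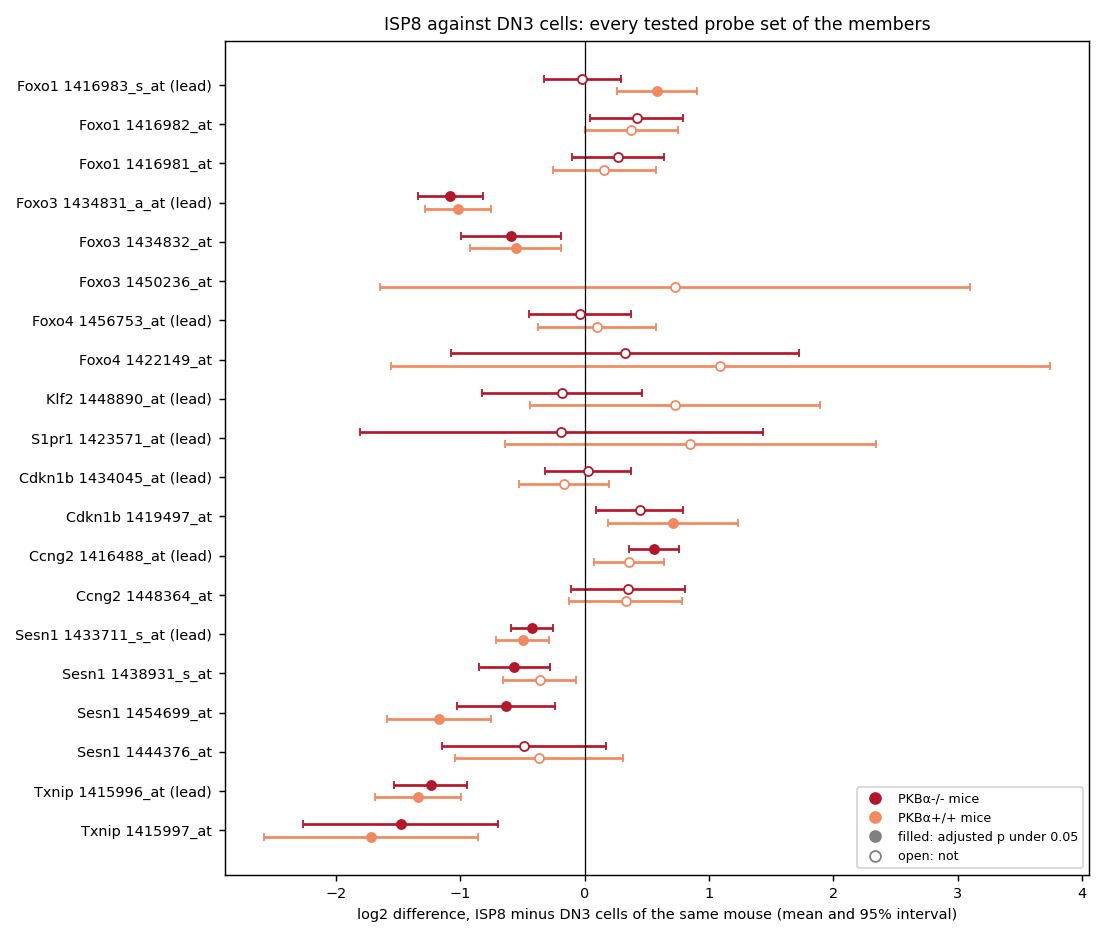
Log2 difference, ISP8 minus DN3 cells of the same mouse, for every member probe set that was tested, in *PKBα*-/- (dark) and *PKBα*+/+ mice (light), as the mean of 4 mice with its 95% interval. Filled circles have an adjusted p under 0.05. The probe sets of *Txnip* and *Sesn1* and the 2 brighter ones of *Foxo3* lie left of 0, whereas *Klf2*, *S1pr1* and the dimmest *Foxo4* and *Foxo3* probe sets have wide intervals.

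In bulk samples, fewer cells of a kind and less RNA per cell cannot be told apart. Some marker lists had lower sums in ISP8 than in DN3 cells, mostly through a few genes. The summed intensity of 6 γδ T cell genes was 582 to 752 and 355 to 718 in *PKBα*-/- and *PKBα*+/+ ISP8 cells and 2596 to 5476 and 1384 to 4048 in *PKBα*-/- and *PKBα*+/+ DN3 cells. That of 8 B cell genes was 474 to 775 and 511 to 728 in ISP8, against 1381 to 1635 and 1350 to 1663 in DN3 cells, and that of 10 epithelial and stromal genes 467 to 824 and 496 to 747, against 1919 to 2347 and 1412 to 2535, in the same order of genotypes. The B cell sum was set mainly by *Cd79b*, which averaged 261 and 257 in ISP8 against 1102 and 1177 in DN3 cells, and the stromal sum by *Pdgfrb* (252 and 179 against 1289 and 1079) and *Epcam* (79.7 and 78.7 against 579 and 607). The median log2 difference of the B cell list was 0.21 and 0.40, that of the epithelial and stromal list 0.21 and -0.01, and that of the γδ T cell list -2.12 and -1.64 over the genes tested. Of these genes 0 to 2 of a list were at or under 20 on every array of a group. The log2 difference between the 3′ and 5′ probe sets of β-actin, a sign of RNA quality, was 2.13 to 2.90 and 1.85 to 2.59 in ISP8 and 2.50 to 3.11 and 2.61 to 3.10 in DN3 cells, and that of *Gapdh* was 1.49 to 2.39 and 1.60 to 1.96 in ISP8 and 1.41 to 2.10 and 1.71 to 2.27 in DN3 cells. The part of these in the subset differences was not tested.

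Between genotypes, the summed intensity of 6 neutrophil genes was 92.3 to 227 in *PKBα*-/- and 189 to 4422 in *PKBα*+/+ ISP8 cells and 96.1 to 552 in *PKBα*-/- and 120 to 1470 in *PKBα*+/+ DN3 cells. *S100a8*, a defining gene of this list, was lower in *PKBα*-/- mice, with a difference of -3.16 ± 0.36 averaged over both subsets (adjusted p = 0.0025). In DN3 cells *Cd163l1*, a γδ T cell gene, was higher in *PKBα*-/- mice by 1.29 ± 0.14 (adjusted p = 5.4e-04). Of the 4 genes of its list tested there it alone passed, and the list median was 0.19. The part of neutrophil or γδ T cell genes in the genotype differences of the members was not tested.

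Other genes listed as FOXO targets were compared between the subsets in the same way. Of 35 tested in *PKBα*-/- mice 5 were higher and 16 lower in ISP8 cells, and of 34 in *PKBα*+/+ mice 7 were higher and 15 lower, where 28.1% and 28.9% of all probe sets passed. The median change was -0.20 and -0.49, against -0.05 and -0.09 over all probe sets tested. The list was not split by whether FOXO proteins raise or lower a gene, so these values give no direction of FOXO activity. The largest were decreases of *Cdkn1a*, which encodes p21 (-5.86 in *PKBα*-/- and -3.60 in *PKBα*+/+ mice), *Ccnd2*, a cyclin of the early G1 phase (-3.94 and -3.41), *Il7r*, the receptor for the survival cytokine IL-7 (-3.32 and -2.91), and *Pik3ip1*, which encodes an inhibitor of PI3K (-2.33 and -2.48). *Bcl6*, a repressor gene singled out after its values were seen, rose most, by 1.84 in *PKBα*-/- and 1.92 in *PKBα*+/+ mice.

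Between genotypes 0 of these genes passed in ISP8 or DN3 cells. At an unadjusted p under 0.05 there were 9 of 35 tested in ISP8 and 2 of 34 in DN3 cells. Of all probe sets tested, 6.08% and 4.83% had such a p. In the average of both subsets 1, *Cdkn1a*, was lower in *PKBα*-/- mice, by 1.65 ± 0.23 (4 of 4 pairs, adjusted p = 0.017). *Cdkn1a* averaged 40.6 in *PKBα*-/- and 179 in *PKBα*+/+ ISP8 cells and 1444 in *PKBα*-/- and 2025 in *PKBα*+/+ DN3 cells. It is also a known target of p53.

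**Figure D4:**
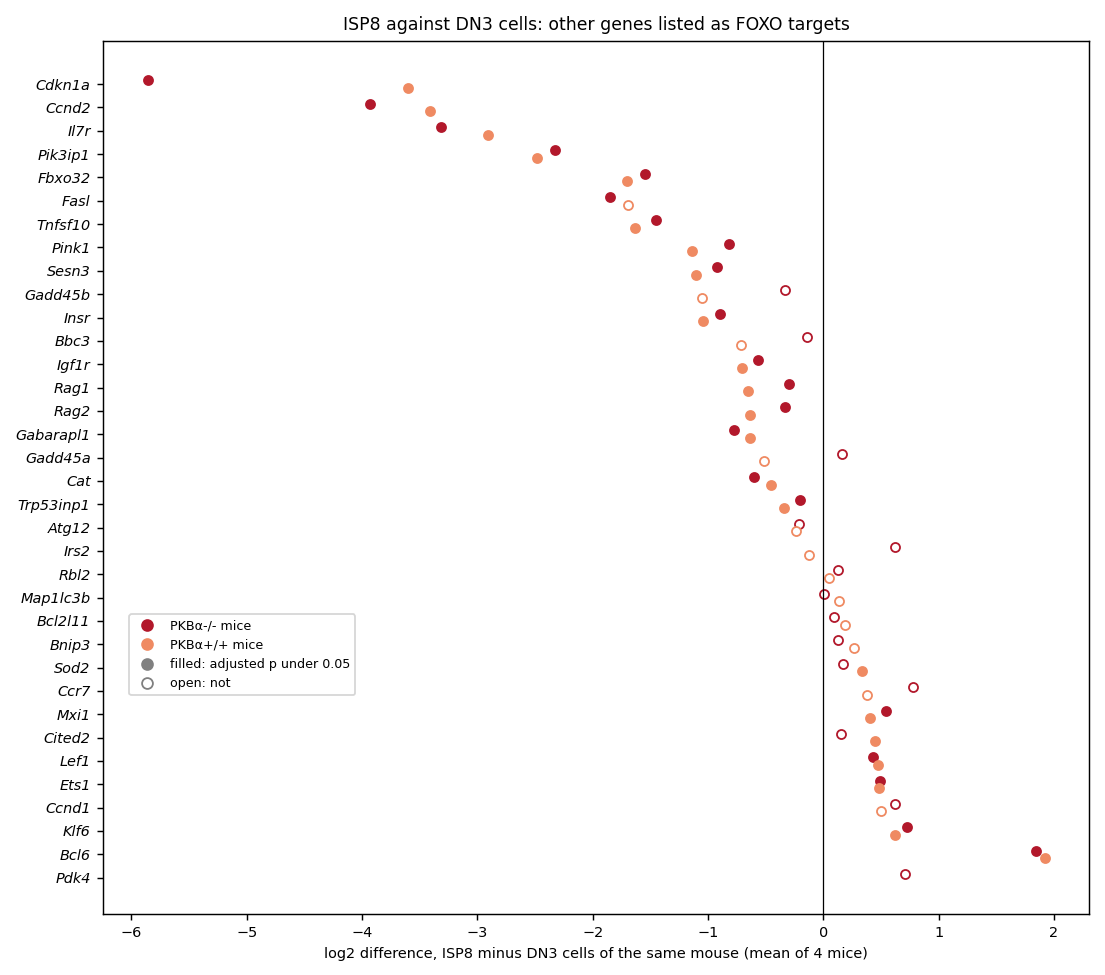
Log2 difference, ISP8 minus DN3 cells of the same mouse (mean of 4 mice), of the other genes listed as FOXO targets in *PKBα*-/- (dark) and *PKBα*+/+ mice (light), ordered by the *PKBα*+/+ value. Filled circles have an adjusted p under 0.05. *Cdkn1a*, *Ccnd2*, *Il7r* and *Pik3ip1* fell by more than 2 in both genotypes, and *Bcl6* lies farthest to the right. *Pdk4* was tested in *PKBα*-/- mice alone and stands last.

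The partners of the members were described in the same way, and the counts are to be read against the 28.1% and 28.9% of all probe sets that passed in *PKBα*-/- and *PKBα*+/+ mice. Of 15 kinases, cyclins, inhibitors and ligase subunits around p27, 12 were higher and 3 lower in ISP8 cells of either genotype. *Ccne1* (2.67 in *PKBα*-/- and 2.98 in *PKBα*+/+ mice) and *Ccna2* (1.96 and 1.99), the cyclins of entry into and passage through S phase, rose most, and the 3 that fell were *Cdkn1a*, *Ccnd2* and the kinase gene *Cdk6*. All 15 measured genes of dividing cells were higher in ISP8 cells, with a median of 1.77 in *PKBα*-/- and 1.76 in *PKBα*+/+ mice.

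Of the sestrin, GATOR and Rag group, 14 genes were tested, and 2 were higher and 2 lower in *PKBα*-/- and 1 higher and 3 lower in *PKBα*+/+ mice, a share near that of all probe sets. *Sesn3*, a sestrin and a FOXO target itself, fell by 0.92 in *PKBα*-/- and by 1.10 in *PKBα*+/+ mice, whereas *Rragd*, a Rag GTPase that recruits mTORC1 to lysosomes, rose by 1.38 and 1.68.

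Around *Txnip*, of 13 genes tested in each genotype, 4 were higher and 2 lower in *PKBα*-/- mice and 5 higher and 3 lower in *PKBα*+/+ mice. *Mlxip*, which encodes the glucose-sensing activator MondoA of *Txnip*, fell by 1.34 in *PKBα*-/- and by 1.32 in *PKBα*+/+ mice, and *Arrdc4*, an arrestin-domain relative of *Txnip*, by 2.61 and 1.45. *Txn2*, the mitochondrial thioredoxin, rose by 0.85 in *PKBα*-/- and by 0.89 in *PKBα*+/+ mice.

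Among the Krüppel-like factors related to KLF2, 12 were tested, and 4 were higher and 2 lower in *PKBα*-/- and 3 higher and 2 lower in *PKBα*+/+ mice. *Klf9* fell by 3.71 in *PKBα*-/- and fell by 3.24 in *PKBα*+/+ mice, and *Klf10*, which TGF-β induces, rose by 1.37 and 1.17. In the sphingosine 1-phosphate group of 12 genes tested, 1 was lower in *PKBα*-/- and 3 were lower in *PKBα*+/+ mice, with *S1pr3* in both (-2.38 and -3.94) and *S1pr4* (-1.04) and *Arrb2* (-0.81) in *PKBα*+/+ mice. *S1pr4* and *Arrb2* were at -0.53 and -0.27 in *PKBα*-/- mice (adjusted p = 0.11 and 0.16).

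The members were also compared with each other over the 16 arrays, as a description, since the arrays share mice and the 2 subsets set most of the variation. *Foxo3* and *Sesn1* had a Pearson r of 0.91, *Foxo3* and *Txnip* 0.83, *Sesn1* and *Txnip* 0.82, and *Ccng2* had -0.59, -0.55 and -0.52 with *Foxo3*, *Txnip* and *Sesn1*. After the group means were removed, *Foxo3* and *Sesn1* had 0.40, *Foxo3* and *Txnip* -0.23 and *Sesn1* and *Txnip* -0.02. The highest value after removal was 0.84, for *Foxo3* and *Cdkn1b* (0.33 before), and the lowest -0.47, for *Cdkn1b* and *Txnip*. *Cdkn1b* and *Ccng2* had 0.65 after removal (0.39 before), *Foxo1* and *Klf2* 0.62 (0.66) and *Foxo1* and *Foxo3* 0.59 (-0.23). *Klf2* and *S1pr1* had 0.60 before and 0.73 after. Both were below the floor in the *PKBα*+/+ DN3 cells of pair 3 (4.87 and 3.32), and the part of this array in their r was not tested.

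Among 15653 other genes measured on the same arrays, the pattern most like that of *Foxo3* was found for *Tcf4* (r = 0.99), *Prkca* (0.98) and *Chd9* (0.98). For *Sesn1* it was *Gm11944* (0.97), *Trgv1* (0.97) and *Klhl24* (0.96), for *Txnip* it was *Septin9* (0.96), *Bmf* (0.95) and *Ctsd* (0.95), and for *Ccng2* it was *Ppp2r2d* (0.89), *Zeb1* (0.88) and *Erc2* (0.87). For *Foxo1*, *Foxo4*, *Klf2*, *S1pr1* and *Cdkn1b* the nearest genes were *Ppp1r16b* (0.83), *Syn2* (0.82), *Obox5* (0.89), *Gpc6* (0.90) and *Ppil6* (0.79).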

How the data were processed

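DN3 and ISP8 thymocytes were sorted by the authors from 4 littermate pairs, with equal cell numbers within a pair, and their RNA was amplified in 2 cycles and hybridised to Affymetrix mouse genome arrays. The deposited values are intensities that the authors estimated with GC-RMA, a method that subtracts background by probe sequence and summarizes the probes of a set. The arrays' values do not share 1 distribution. They are linear, and their log2 was taken here with nothing added. Median intensity per array was 55.1 to 70.5, and 69.5% to 72.8% of probe sets exceeded 20.

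Probe sets were named through GEO's platform annotation. Testing required a value above 20 in 1 or both animals of a pair, or in 1 or both subsets of a mouse, for at least 3 of the 4 pairs or mice. limma 3.58.1 (R 4.3.3) was used, with a mean-dependent spread and the pair or the mouse as a block. P-values measure the spread between mice of this study. Pairing comes from the labels. Deviations of same-pair arrays from their group means were correlated (r = 0.03 to 0.09 in ISP8 cells and r = 0.15 to 0.21 in DN3 cells, over probe sets with a mean above 20, against up to 0.06 in ISP8 and 0.04 in DN3 cells between pairs, so that not every ISP8 pair stood above the others), as were the subsets of a mouse (0.07 to 0.14). The fits were also run on simulated data, with noise set below the measured spread within groups and without small changes. That run gives no measure of power or error rates in these data.

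Members and lists were chosen with earlier results of these data known. Named were all members, *Akt1*, up to 4 genes with the largest change that passed per list and comparison, and the 3 genes most like a member. As alternatives, the floor was dropped or raised to 100, 20 was added before the log, arrays were quantile normalized, the block was dropped, moderation was robust, the methods' paired test was used, all probe sets of a gene were averaged, and each pair was left out. Figures were drawn with matplotlib in Python.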

Additional observations from a re-analysis of the deposited data

Results flagged for a closer look

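Of 60 groups of 4 arrays examined for the named probe sets of the members, 5 held an array that stood apart from the other 3 by Dixon's test, where chance alone gives about 1 in 20. *S1pr1* was 6.24 in the *PKBα*-/- DN3 cells of pair 2, against 34.4 to 36.5 in the other pairs. *Ccng2* was 6807 in the *PKBα*-/- ISP8 cells of pair 2, against 5668 to 5742, and the second *Txnip* probe set was 162 in the *PKBα*-/- DN3 cells of pair 3, against 99.1 to 105. The second *Foxo3* probe set was 605 in the *PKBα*+/+ DN3 cells of pair 4, against 481 to 491, and *Sesn1* 1438931_s_at was 1569.8 in the *PKBα*+/+ DN3 cells of pair 3, against 1019 to 1104.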

How the results depend on the processing

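The genotype comparisons called 0 member probe sets under every alternative run, and the number of all probe sets called moved. In ISP8 cells, DN3 cells and their average it was 5, 13 and 13. Without a filter it was 3 in ISP8 and 8 in DN3 cells, with a filter at 100 it was 1 in ISP8 cells and 8 in the average, and with an added constant of 20 it was 27 in DN3 cells and 25 in the average. Without the replicate block it was 2, 1 and 2, and with robust moderation 22 in the average. The methods' paired test selected 521, 458 and 530 unadjusted (with a 1.5-fold change in 3 of 4 pairs) and 0, 0 and 0 adjusted. Leaving out each pair gave 1 to 11, 11 to 45 and 5 to 17, with 1 and 11 in ISP8 cells without pairs 1 and 4, 23, 45 and 25 in DN3 cells without pairs 1, 3 and 4, and 5 and 8 in the average without pairs 1 and 2. With the pair as a replicate block on mouse differences, the difference between subsets called 1.

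For ISP8 against DN3 cells, the methods' paired test called 5910 probe sets unadjusted and 3036 adjusted in *PKBα*-/- mice, and 6626 and 3103 in *PKBα*+/+ mice. Of the members it called 3 and 2 in *PKBα*-/- and 4 and 1 in *PKBα*+/+ mice. Other alternatives kept these counts within 1.5 times.

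Directions that turned were those of differences that had not passed. Under quantile normalization the genotype difference in DN3 cells was -0.0026 for *Ccng2* and -0.0085 for *Sesn1*, and the subset difference was 0.10 for *Foxo1*, 0.18 for *Foxo4* and 0.012 for *Klf2* in *PKBα*-/- mice and 0.050 for *Cdkn1b* in *PKBα*+/+ mice. With each gene's probe sets averaged, *Txnip* was at 0.031 between genotypes in DN3 cells, *Foxo4* at 0.14 between subsets in *PKBα*-/- mice, and *Cdkn1b* at 0.27 between subsets in *PKBα*+/+ mice and at -0.041 for the difference of genotype effects. With 20 added, *S1pr1* was at 0.10 between subsets in *PKBα*-/- mice. The cause was not tested.

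With each pair left out, genotype differences in DN3 cells ran from -0.15 to 0.039 for *Foxo3*, -1.27 to 0.51 for *S1pr1*, -0.081 to 0.13 for *Cdkn1b*, -0.075 to 0.14 for *Ccng2*, -0.043 to 0.048 for *Sesn1* and -0.081 to 0.052 for *Txnip*. Those of *Txnip* ran from -0.040 to 0.22 in ISP8 cells and from -0.030 to 0.13 in the average, and those of *S1pr1* from -1.22 to 0.13 in the average. Subset differences in *PKBα*-/- mice ran from -0.11 to 0.12 for *Foxo1*, -0.13 to 0.049 for *Foxo4*, -0.36 to 0.10 for *Klf2* and -0.13 to 0.12 for *Cdkn1b*, and *S1pr1*, which passed the filter in these fits only without pair 2, was then at 0.23. In *PKBα*+/+ mice they ran from -0.0076 to 0.22 for *Foxo4*, -0.023 to 1.12 for *Klf2* and -0.031 to 1.39 for *S1pr1*. The difference of genotype effects ran from -0.35 to 0.057 for *Foxo4*, -1.92 to 0.10 for *S1pr1* and -0.022 to 0.16 for *Txnip*.

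The number of arrays limits the precision, and values below 20 limit *S1pr1*, *Klf2* and the weakest probe sets of *Foxo1*, *Foxo3* and *Foxo4*. Among the other FOXO targets, *Cdkn1a* averaged near that value in *PKBα*-/- ISP8 cells.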

Other observations

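Genes whose products act on FOXO proteins were measured as well. Of 28 tested in *PKBα*-/- mice 10 were higher and 5 lower in ISP8 than in DN3 cells, and of 29 in *PKBα*+/+ mice 10 were higher and 4 lower. Of all probe sets tested, 11.9% were higher and 16.2% lower in *PKBα*-/- mice. In *PKBα*+/+ mice 11.6% were higher and 17.3% lower. *Sgk3*, a kinase related to PKB that phosphorylates FOXO proteins, fell by 1.56 in *PKBα*-/- and by 1.23 in *PKBα*+/+ mice. *Cdk2* rose by 1.40 and 1.64, *Skp2*, the ligase subunit that marks p27 and FOXO1 for degradation, by 1.08 and 1.23, and *Ywhah*, a 14-3-3 protein, by 1.19 and 1.15. Between genotypes *Akt1* alone passed in this list, in ISP8 and in DN3 cells and in their average.

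Of the relatives of cyclin G2, *Ccng1* fell by 0.47 in *PKBα*-/- and by 0.41 in *PKBα*+/+ mice and *Ccni* rose by 0.43 and 0.34. The probe set shared by *Foxo3* and a second gene had 40.3 to 81.0 in *PKBα*-/- and 41.2 to 66.5 in *PKBα*+/+ ISP8 cells, and 39.6 to 56.0 in *PKBα*-/- and 30.2 to 102 in *PKBα*+/+ DN3 cells.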
